A study of Arabidopsis thaliana with 21 samples.

Results

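The comparison sets plants mutant in ADA2A against wild-type plants in Arabidopsis thaliana, at 30 days of age. The members were taken from the sample labels: the 3 libraries of the genotype labelled ada2a-/- and the 3 libraries of the wild type Col-0, which are 6 of the 21 libraries of the study. Levels in the double mutant ada2b-cada2a (ada2b-c-/-ada2a-/-) and in the single mutant spc (spc-/-), with 3 libraries each, are given where stated. Of the 32548 genes listed, the 23290 whose mean over the 21 libraries was at least 1 were tested. All plants spent their first 12 days on MS plates and were then moved to soil at 22 °C, in days of 16 h light, and carried no other allele or treatment that the labels name. Total RNA was sequenced from material whose tissue is labelled seedlings, although the plants were 30 days old. The study, by its title, concerns how conserved and plant-specific complexes around GCN5 act on transcription and development.

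GCN5 is a histone acetyltransferase, an enzyme that adds acetyl groups to the tails of histones at active genes, and it works as part of larger complexes. ADA2 proteins are the adaptors that bind GCN5 and stimulate it on nucleosomes. Arabidopsis has a pair of them: ADA2B belongs to the SAGA complex, which plants share with yeast and animals, while ADA2A belongs to a plant-specific complex named PAGA, together with the protein SPC.

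The deposited values are an expression signal per gene that the authors had already adjusted, and they are not whole numbers, so the number of reads behind a value is unknown. In ada2a 8441 genes were near 0 in all 3 libraries and 0 genes in only some of them, and in Col-0 these numbers were 9029 and 363. Values of 0 in all 3 libraries of a group may therefore not be separate observations. Column totals were 43982999 to 56575116 in ada2a and 39255132 to 40402903 in Col-0. The libraries scattered around their genotype's mean with a median residual SD of 0.426 in ada2a and 0.279 in Col-0 on the log2 scale. No label says that libraries came from separate plants or pools, so every p-value is set against a spread between libraries that may be technical. Changes below are log2 differences of ada2a minus Col-0 with the SE of the fit, after 1 was added to every value, which understates the change of genes with low values. Adjusted p-values come from limma with Benjamini-Hochberg adjustment over all 23290 genes, and genes under 0.05 count as called. This fit pooled the spread of all 21 libraries, while the median residual SD ran from 0.115 in the genotype ada2b-c to 0.485 in spc. The adjusted p-values printed below rest on that pooled spread unless another fit is named. In a limma fit of the 6 libraries alone they can be far larger, as for SAG12 (0.0259 in place of 1.86e-05).

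ADA2A itself (AT3G07740, on the minus strand at chr3:2469783-2473095 in TAIR10.1) was listed at 20.4, 18.0 and 57.4 in ada2a, against 77.9, 80.5 and 42.3 in Col-0. The library labelled ada2a replicate 3 lay inside the range of the Col-0 libraries, so the groups overlapped, and the change of -1.18 ± 0.48 was not called (adjusted p = 0.0539). Without that library, the highest of the 3 in ADA2A, the difference was -1.69 and passed (adjusted p = 0.0213), which its own value made likely. Without ada2a replicate 1 or 2 the difference did not pass (adjusted p = 0.147 and 0.193). In the double mutant ada2b-cada2a, which carries the ada2a mutation too, the gene was listed at 7.35, 1.49 and 1.60. The labels name neither the kind nor the position of the mutation, so a transcript level need not show it.

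The other adaptor gene, ADA2B (AT4G16420), had 267, 216 and 163 in ada2a, against 737, 403 and 341 in Col-0. All 3 ada2a libraries lay below all 3 Col-0 libraries, and it fell by 1.14 (SE 0.39, adjusted p = 0.0277). That call was lost in a fit of the 6 libraries alone (adjusted p = 0.0646), without Col-0 replicate 1, ada2a replicate 2 or ada2a replicate 3 (adjusted p = 0.123 without the last) and after the corrections for transcript length described below. The enzyme gene GCN5 (AT3G54610) was at 442, 272 and 279 in ada2a, against 429, 332 and 353 in Col-0, with a change of -0.19 ± 0.21 that was not called (adjusted p = 0.475) and whose sign changed after the length corrections and with equal column medians.

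**Figure D1:**
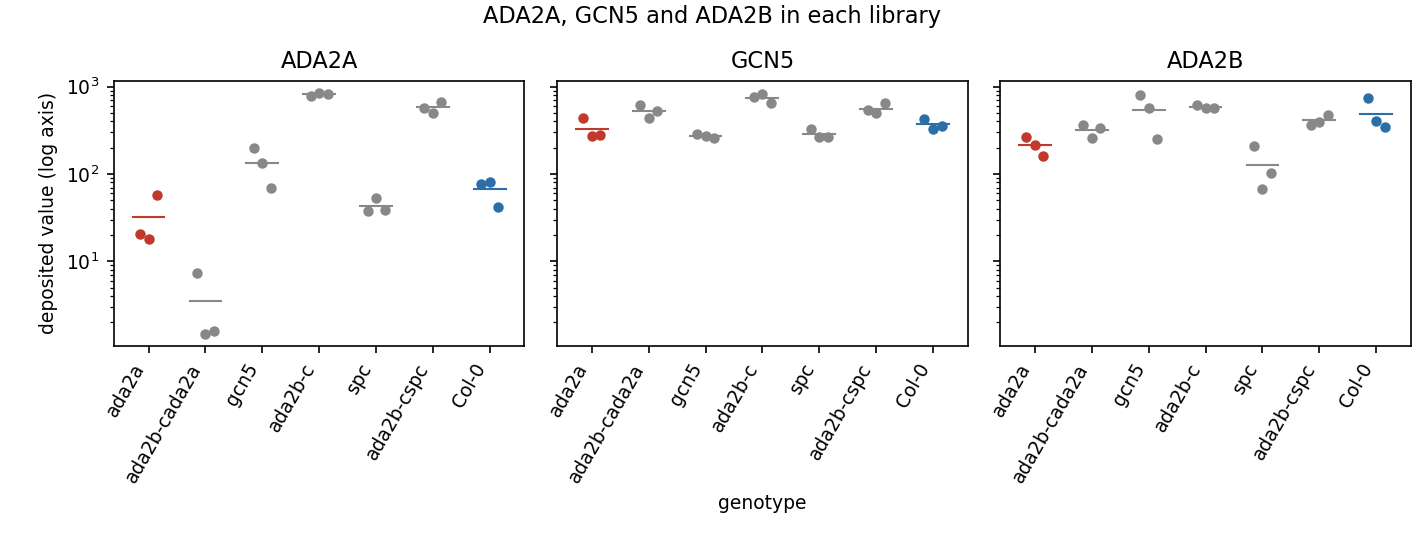
Deposited values of ADA2A, GCN5 and ADA2B on a log axis in each of the 21 libraries, 3 per genotype (points, in replicate order from left to right) with the genotype mean (line), ada2a in red and Col-0 in blue. ADA2A is lowest in ada2b-cada2a, and 1 of the 3 ada2a libraries, at 57.4, lies within the Col-0 range.

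Across the genome, 4606 genes were called higher in ada2a than in Col-0 (19.8% of the genes tested) and 4629 lower (19.9%), together 39.7%. Without regard to a test, the 3 libraries of each group did not overlap in 25.4% of the genes on the higher side and 23.8% on the lower side. Changes of more than 1 on the log2 scale were called for 3018 higher and 2364 lower genes. The split rested on the scaling of the columns. With equal column totals 11.3% of the genes were called higher and 30.7% lower, and with equal column medians 23.4% and 14.4%. The median change of all tested genes was -0.02 as deposited, -0.37 with equal totals and 0.17 with equal medians.

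The changes followed transcript length. Genes with transcripts from 600 to under 1000 nt had a median change of 0.96, and those from 2000 to under 3000 nt a median of -0.48. The slope of a library's deviations per doubling of transcript length was -0.80, -0.91 and -1.28 in ada2a, against -0.22, -0.34 and -0.63 in Col-0. Because this trend ran with genotype, the comparison was fitted in 3 further ways: on the 6 libraries alone, after subtracting each library's trend over length and GC content, and with the library's length slope as a covariate. They called 12.1%, 15.9% and 9.84% of the genes higher and 8.5%, 17.2% and 6.24% lower, in that order. In all 4 fits 1787 genes (7.67%) were called in the same direction, 949 higher (4.07% of those tested) and 838 lower (3.6%). In all 1787 the 3 ada2a and the 3 Col-0 libraries did not overlap. Without ada2a replicate 3 the main comparison called 10.1% of the genes higher and 9.63% lower, together 4600 in place of 9235, and without Col-0 replicate 1 it called 5528. Of the 1787 genes, 1766 were still called in the same direction without ada2a replicate 3 and 1769 without Col-0 replicate 1. The set was picked by fits of these same libraries. Its lack of overlap and its calls without 1 library were favoured by that choice and are no independent check. The medians of transcript length were 1263 nt for the higher and 1861 nt for the lower genes of that set, against 1075 nt and 2021 nt for all genes called higher and lower and 1620 nt for those tested. In what follows "all 4 fits" refers to this set, and the part of the length trend in the other calls was not tested.

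**Figure D2:**
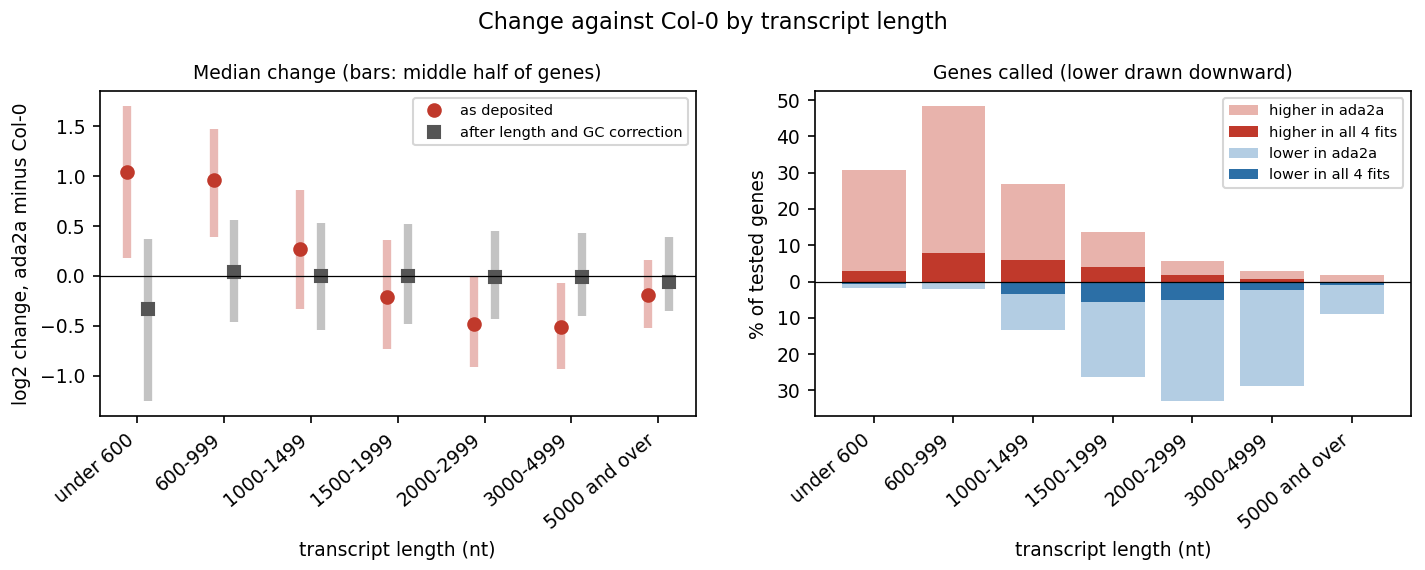
Left, median log2 change of ada2a minus Col-0 by transcript length (points, with bars from the lower to the upper quartile of the genes), as deposited in red and after the length and GC correction in grey. Right, percentage of tested genes called higher (up) and lower (down), with those called in all 4 fits in the dark shade. The median falls from 1.04 below 600 nt to -0.51 between 3000 and 5000 nt as deposited, and after the correction it is -0.34 below 600 nt and between -0.06 and 0.04 in the longer classes.

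The counts of this and the later lists stand beside 19.8% of all genes called higher and 19.9% lower. In all 4 fits these shares were 4.07% and 3.6%, and with equal totals 11.3% and 30.7%. Genes for the acetyltransferase machinery were called in both directions, and few of them in all 4 fits. Of 25 tested genes for subunits of GCN5 complexes, 2 were called higher and 6 lower, with a median of -0.17 (0 higher and 9 lower with equal totals). ING2 (AT1G54390), whose product binds methylated histone H3, had 283, 206 and 270.4 in ada2a, against 489, 527 and 474 in Col-0. The ada2a libraries were well below those of Col-0, and ING2 fell by 0.98 (SE 0.19, adjusted p = 0.00102), the one member called in all 4 fits. SGF29A (AT3G27460) and SGF29B (AT5G40550), readers of methylated histone tails in SAGA, were lower with changes of -0.92 ± 0.22 and -0.76 ± 0.21. Both calls were lost in the 6-library fit, and with replicate number as a block the adjusted p was 0.0561 and 0.0662. Among 10 other acetyltransferase genes 2 were called, both lower and neither in all 4 fits. Of 13 deacetylase genes 1 was higher and 3 lower (0 and 7 with equal totals). HDA19 (AT4G38130), a major deacetylase that opposes acetylation at many genes, was at 5298, 4989 and 5244 in ada2a, against 3842, 4135 and 4065 in Col-0. It rose by 0.37 (SE 0.12, adjusted p = 0.0228) in all 4 fits, but its change was -0.01 with equal totals, and the call was lost without Col-0 replicate 1 or ada2a replicate 3 (adjusted p = 0.0726 without the last).

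In ada2a the clock genes CCA1, LHY, RVE4, RVE8, PRR9 and LNK2 were called lower than in Col-0, and ELF4, LUX and BOA were called higher. In this clock, CCA1 and LHY are made around dawn and repress evening genes through a DNA motif named the evening element. RVE8 and its partner LNK2 act at the same motif as activators, the PRR proteins repress CCA1 and LHY through the day, and ELF3, ELF4 and LUX form the evening complex, which represses PRR9. Of the 17 clock genes, 3 were called higher and 6 lower, with a median of -0.38 (3 and 8 with equal totals). In all 4 fits 3 were higher and 2 lower.

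The sequences of 2 of the promoters, those of the evening genes LUX and BOA, are given because each holds the evening element. They are the 300 bases before the annotated start in the RefSeq TAIR10.1 genome, 5′ to 3′ on the gene's strand, with the motif in capitals. It was searched as AAAATATCT and, for the other strand, as AGATATTTT.
LUX, chr3:17182742-17183041, plus strand: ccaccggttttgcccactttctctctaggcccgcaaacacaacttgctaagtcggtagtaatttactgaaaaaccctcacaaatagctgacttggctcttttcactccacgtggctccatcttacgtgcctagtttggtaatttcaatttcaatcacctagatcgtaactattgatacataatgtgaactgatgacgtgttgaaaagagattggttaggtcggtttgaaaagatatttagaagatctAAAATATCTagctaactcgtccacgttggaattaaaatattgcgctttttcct
BOA, chr5:24003588-24003887, plus strand: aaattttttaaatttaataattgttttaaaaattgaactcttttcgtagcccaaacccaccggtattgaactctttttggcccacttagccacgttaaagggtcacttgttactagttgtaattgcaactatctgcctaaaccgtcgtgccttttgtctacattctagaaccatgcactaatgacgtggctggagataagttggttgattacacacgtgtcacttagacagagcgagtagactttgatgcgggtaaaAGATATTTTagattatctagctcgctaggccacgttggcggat

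The motif was found in 2.87% of the windows of all tested genes. It was in 3.496% of those of all genes called higher and in 2.679% of those called lower. For genes called in all 4 fits the shares were 5.06% (48 windows) for higher and 2.51% (21 windows) for lower. Differences between these shares were not tested. TOC1 held it once and PRR5 held 2 copies, while the windows of ELF4, CCA1, LHY and PRR9 did not contain these letters.

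Among the morning genes, CCA1 (AT2G46830) had 67.9, 136 and 83.9 in ada2a, against 499.7, 545 and 361 in Col-0. LHY (AT1G01060) had 72.3, 91.3 and 31.4 in ada2a, against 206, 217 and 159.6 in Col-0. In both, the highest ada2a library was below the lowest Col-0 library, and both fell, with changes of -2.32 ± 0.55 (adjusted p = 0.00374) and -1.68 ± 0.41 (adjusted p = 0.00464). Both kept the call in the 6-library fit and after the length correction, and lost it with the slope covariate, at 0.121 for CCA1 and 0.101 for LHY. RVE8 (AT3G09600) was at 78.3, 70.6 and 34.4 in ada2a, against 237, 237 and 173 in Col-0, and fell by 1.87 (SE 0.33, adjusted p = 0.000565) in all 4 fits. LNK2 (AT3G54500) fell by 1.51, a call also lost with the covariate (adjusted p = 0.0931). RVE4 (AT5G02840), a relative of RVE8, completed the 6 and fell by 0.38, close to the threshold (adjusted p = 0.0498) and lost in each of the other 3 fits, with the block (adjusted p = 0.114) and without ada2a replicate 3 (adjusted p = 0.174).

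The largest clock change was in PRR9 (AT2G46790), the first of the PRR genes to peak in the day, which had 228, 159 and 85.0 in ada2a, against 1034, 849 and 973 in Col-0. Every Col-0 library was more than 3 times above every ada2a library, and PRR9 fell by 2.70 (SE 0.51, adjusted p = 0.000935) in all 4 fits. The later members of its family, PRR7 (AT5G02810) and PRR5 (AT5G24470), and the last of the series, TOC1 (AT5G61380), were not called, and their groups overlapped.

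The 3 clock genes called higher are usually made in the evening. ELF4 (AT2G40080) was at 2572, 4334 and 4434 in ada2a, against 833, 1027 and 1266 in Col-0. It rose by 1.84 (SE 0.30, adjusted p = 0.000413), and its ada2a libraries were all above those of Col-0. LUX (AT3G46640), the DNA-binding member of the evening complex, had 3385, 3999 and 4021 in ada2a, against 1523, 1780.2 and 1660.5 in Col-0. It rose by 1.20 (SE 0.14, adjusted p = 2e-05), with a narrow spread in both groups. BOA (AT5G59570), a close relative of LUX, was at 212, 244 and 242 in ada2a, against 56.7, 122 and 67.7 in Col-0 and rose by 1.57 (SE 0.21, adjusted p = 9.1e-05). All 3 were called in all 4 fits and with equal totals. ELF3 (AT2G25930), which completes the complex, was not called and its groups overlapped, as for TOC1. FKF1 (AT1G68050), a blue-light receptor gene of the flowering list that is usually made late in the day, was lower. It had 492, 378 and 281 in ada2a, against 813, 596 and 493 in Col-0 and fell by 0.73 (SE 0.27, adjusted p = 0.0363), a call lost in the 6-library fit, with the covariate and without Col-0 replicate 1 or 2 or ada2a replicate 2 or 3 (adjusted p = 0.19 without the last). The labels do not give the hour of harvest. LUX, BOA and FKF1 overlap the neighbouring genes AT3G46650, AT5G59580 and AT1G68060 in the annotation, and no source used here gives the strandedness, so reads of overlapping genes cannot be told apart.

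**Figure D3:**
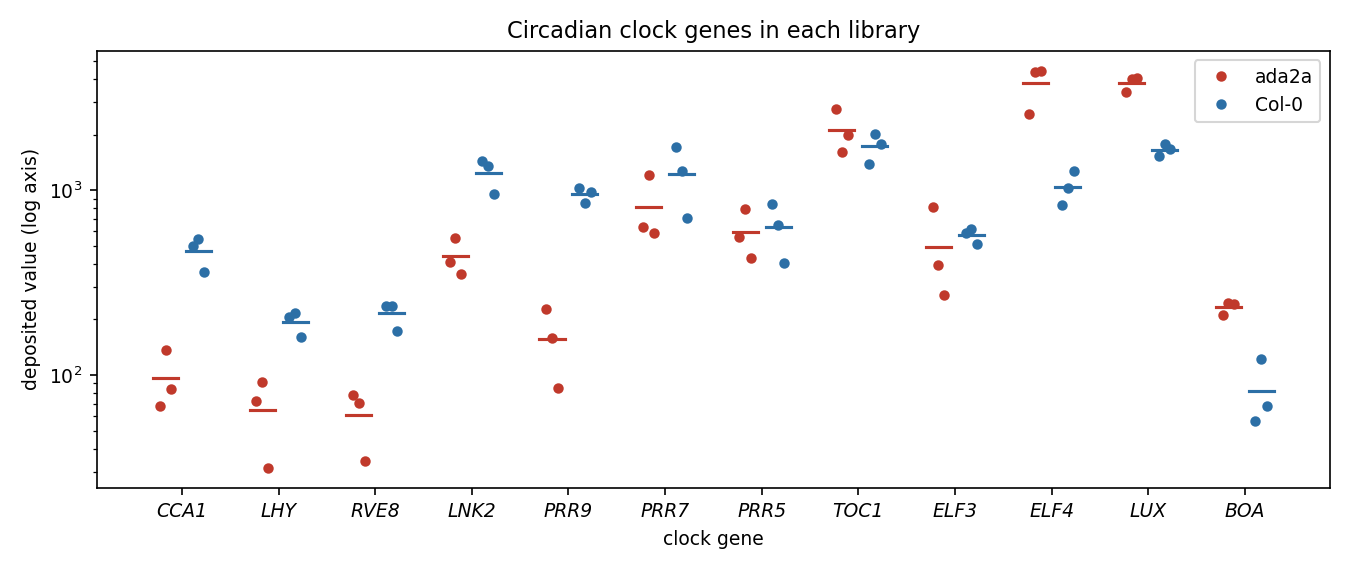
Deposited values of 12 clock genes on a log axis, ada2a in red and Col-0 in blue, 1 point per library and a line at the mean of 3, ordered about from dawn to dusk. CCA1, LHY, RVE8, LNK2 and PRR9 lie lower in ada2a without overlap, ELF4, LUX and BOA lie higher without overlap, and the 4 genes between overlap.

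Genes that start flowering were mostly higher in ada2a where they were called. Of 15 activators of flowering 6 were called higher and 1, FKF1, lower, with a median of 0.62 (2 higher and 1 lower with equal totals), and of 12 repressors 3 were called higher and 1 lower, with a median of 0.10 (2 and 3 with equal totals). TSF (AT4G20370), a close relative of the mobile flowering signal FT, was listed at 7.45, 6.29 and 6.40 in ada2a and at 0 in all 3 Col-0 libraries. FUL (AT5G60910), a MADS-box factor of the inflorescence, had 1385, 1834 and 1989.6 in ada2a, against 619, 645 and 749 in Col-0, and rose by 1.36 (SE 0.28, adjusted p = 0.0016). These 2 genes were called in all 4 fits. FT (AT1G65480) itself had 130.2, 199.8 and 151 in ada2a, against 65.1, 78.2 and 46.7 in Col-0, without overlap. It rose by 1.34 (SE 0.43, adjusted p = 0.02), a call lost after the length correction, with the covariate and with equal totals (adjusted p of 0.214, 0.347 and 0.0656), and without Col-0 replicate 1 or 3 or ada2a replicate 2 or 3 (adjusted p = 0.0565 without the last). Of the repressors, TEM1 (AT1G25560) rose by 1.33 and MAF5 (AT5G65080) fell by 1.46, a pair of calls lost with the covariate for TEM1 and in the 6-library fit for MAF5.

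Flower genes were present in both groups, and those called were higher in ada2a. Of 11 tested genes of floral organ identity 3 were called, each of them higher, with a median of 0.44 (0.08 with equal totals), and their summed value was 3632 to 4162 in ada2a and 2225 to 2754 in Col-0. SEP3 (AT1G24260), a factor needed for petals, stamens and carpels, was at 721, 676 and 713 in ada2a, against 249.9, 282 and 263 in Col-0. It rose by 1.41 (SE 0.33, adjusted p = 0.00385) in all 4 fits, with no overlap between the groups. AP1 (AT1G69120) and PI (AT5G20240) rose by 1.06 and 1.27 but lost their calls with the covariate, and AP1 also with equal totals and without ada2a replicate 3 (adjusted p = 0.0528).

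Among 12 tested genes of the tapetum and pollen wall 3 were called, each of them higher (2 higher and 1 lower with equal totals). AT5G07230, a lipid-transfer protein gene of the tapetum, had 249.8, 188 and 306 in ada2a, against 21.5, 25.6 and 63.8 in Col-0 and rose by 2.85 (SE 0.45, adjusted p = 0.000328) in all 4 fits. The tapetum list summed to 1018 to 2073 in ada2a and 820 to 1079 in Col-0. The part that a different share of flower buds had in the changes above was not tested. In a whole-plant sample, more cells of a kind and more RNA per cell cannot be told apart. Of 6 tested root genes 0 were called in either direction by limma and 0 had an unadjusted p under 0.05, and the root regulators PLT1 and PLT2 were listed at 0 in all 6 libraries. Root genes summed to 299 to 646 in ada2a and 526 to 1007 in Col-0, most of it from the root and hypocotyl gene PYK10 (AT3G09260).

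**Figure D4:**
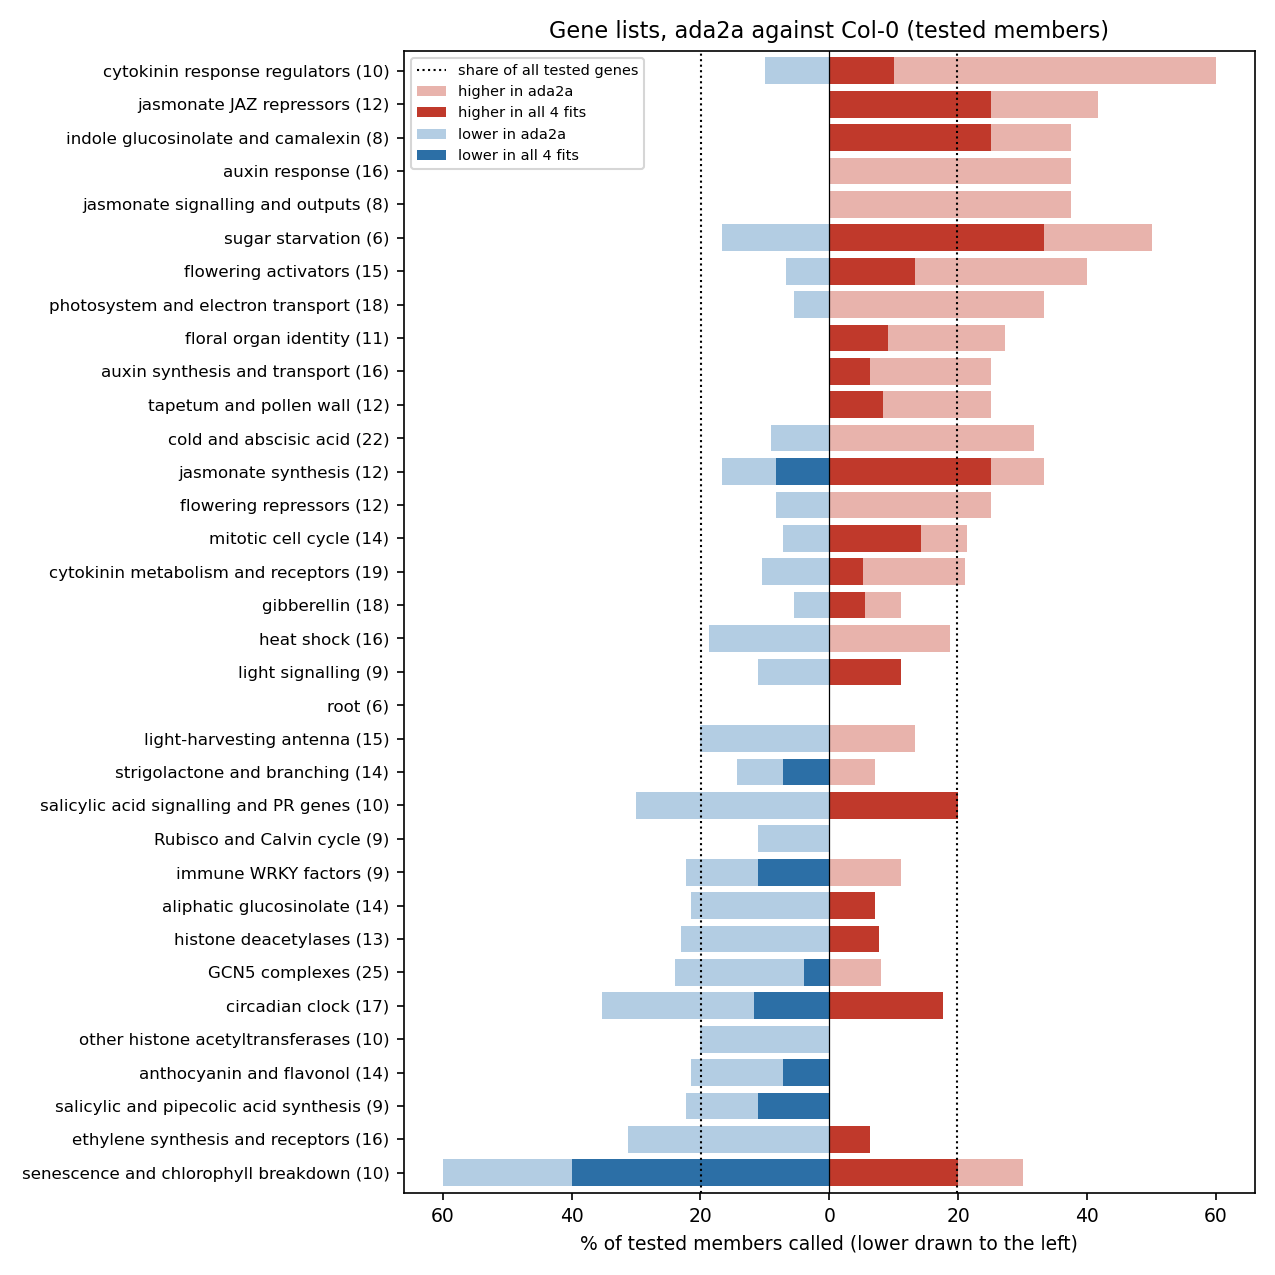
Percentage of the tested members of each of 34 gene lists called higher (right) and lower (left) in ada2a, with those called in all 4 fits in the dark shade and the share of all tested genes as dotted lines. Cytokinin response regulators show the highest share called higher, 6 of 10, and senescence genes the highest share called lower, 6 of 10.

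Primary response genes of cytokinin were mostly higher where called. The type-A response regulators are induced by this hormone within minutes and dampen its signal. Of 10 tested, 6 were called higher and 1 lower, with a median of 1.10 (also 6 and 1 with equal totals, 1 and 0 in all 4 fits). ARR5 (AT3G48100) had 2759, 4228 and 6109 in ada2a, against 913, 1053 and 1242 in Col-0. The groups did not overlap, and ARR5 rose by 1.97 (SE 0.34, adjusted p = 0.000583) in all 4 fits. ARR9 (AT3G57040) and ARR15 (AT1G74890) rose by 1.41 and 1.22 and lost their calls with the covariate, ARR15 also after the length correction and without ada2a replicate 3 (adjusted p = 0.0535), and ARR8 (AT2G41310) went against the others and fell by 1.24. Of 19 genes for making, degrading and sensing cytokinin, 4 were higher and 2 lower (2 and 5 with equal totals). CKX2 (AT2G19500), an enzyme that degrades cytokinin, was listed at 11.3, 3.99 and 20.7 in ada2a and at 0 in the 3 Col-0 libraries, and was called in all 4 fits. IPT3 (AT3G63110), which makes cytokinin in response to nitrate, fell by 1.02 (SE 0.27, adjusted p = 0.00725), a call lost with the covariate.

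The auxin genes that were called were all higher as deposited, 6 of 16 among response genes (median 0.55) and 4 of 16 among those for synthesis and transport (median 0.33), but with equal totals the counts were 1 higher and 1 lower, and 0 higher and 3 lower. The auxin exporter gene PIN3 (AT1G70940) was at 5645, 5446 and 6727 in ada2a, against 3089, 3994 and 3548 in Col-0. It rose by 0.75 (SE 0.15, adjusted p = 0.00155) and was the one auxin gene called in all 4 fits, a call lost with equal totals (adjusted p = 0.0842). IAA19 (AT3G15540), an auxin-induced repressor, rose by 1.12 and lost the call with the covariate. Of 18 gibberellin genes 2 were higher and 1 lower, and GA2OX2 (AT1G30040), an enzyme that inactivates the hormone, had 586, 542 and 602 in ada2a, against 259.5, 301 and 260.4 in Col-0. It rose by 1.08 (SE 0.18, adjusted p = 0.000476) in all 4 fits, with no overlap. Of 14 strigolactone genes 1 was higher and 2 lower. Both counts were below the 19.8% higher and 19.9% lower of all genes, as were those for gibberellin. D27 (AT1G03055), the enzyme of the first step of strigolactone synthesis, was at 60.7, 36.0 and 33.7 in ada2a, against 126, 137 and 166 in Col-0, and fell by 1.74 (SE 0.36, adjusted p = 0.00166) in all 4 fits.

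In the jasmonate pathway the repressors that jasmonate itself induces were higher where called as deposited. Of 12 JAZ genes 5 were called, each of them higher, with a median of 0.39, and 3 of them in all 4 fits, while with equal totals 3 were higher and 3 lower. JAZ7 (AT2G34600) had 934, 1531 and 2141 in ada2a, against 145, 206 and 229 in Col-0. JAZ8 (AT1G30135) had 274, 537 and 620.2 in ada2a, against 23.7, 64.4 and 75.1 in Col-0. Both showed no overlap and rose by 2.93 (SE 0.42, adjusted p = 0.000147) and 3.18 (SE 0.56, adjusted p = 0.000617). JAZ10 (AT5G13220), another induced member, rose by 1.08 (SE 0.21).

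Of 12 genes of jasmonate synthesis 4 were higher and 2 lower (2 and 4 with equal totals). Genes at different steps rose in all 4 fits: the lipoxygenase gene LOX4 (AT1G72520) by 1.13, the cyclase gene AOC3 (AT3G25780) by 1.24 and the reductase gene OPR3 (AT2G06050) by 0.64. The cyclase family itself was divided. AOC3 was at 1619.9, 1449 and 2046 in ada2a, against 705, 639 and 811 in Col-0, while AOC1 (AT3G25760) was at 1459, 1647 and 1792 in ada2a, against 3135, 3466 and 4154 in Col-0, and fell by 1.13 (SE 0.19, adjusted p = 0.00051) in all 4 fits. Among 8 outputs of jasmonate signalling 3 were called, each of them higher and none in all 4 fits, and with equal totals 1 was higher and 3 were lower.

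Of 16 genes for making and sensing ethylene 1 was higher and 5 lower as deposited, with a median of -0.38 (1 and 6 with equal totals, 3 and 2 after the length correction). As deposited these were 6.25% and 31.25%, beside 19.8% and 19.9% of all genes. ACS8 (AT4G37770), which makes the ethylene precursor, had 1129, 1093 and 1072 in ada2a, against 427, 491 and 623 in Col-0, and rose by 1.11 (SE 0.21, adjusted p = 0.000925) in all 4 fits. The 5 that fell included ACO4 (AT1G05010), which completes the synthesis, by 0.69, and the receptor gene ETR2 (AT3G23150), by 0.95, and none of the 5 was called in all 4 fits. ETR2 was lost without ada2a replicate 3 (adjusted p = 0.0998).

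Salicylic acid genes went in both directions, with counts that stand beside 19.8% higher and 19.9% lower of all genes. Of 9 genes of its synthesis 2 were called, both lower (2 higher and 1 lower after the length correction, with the covariate and with equal medians). ICS1 (AT1G74710), the main source of this hormone, was at 195, 217 and 169 in ada2a, against 441, 413 and 296 in Col-0. It fell by 0.97 (SE 0.20, adjusted p = 0.00193) in all 4 fits, a call lost when the length correction was joined with replicate number as a block (adjusted p = 0.105). Of 10 genes of salicylic acid signalling 2 were higher and 3 lower (2 and 5 with equal totals). PR1 (AT2G14610), the classic marker of this pathway, had 1157, 1890.4 and 1927 in ada2a, against 309.8, 451 and 486 in Col-0, without overlap, and rose by 1.98 (SE 0.29, adjusted p = 0.000173). NIMIN1 (AT1G02450), a salicylate-induced repressor of PR1, had 667, 1005 and 1299.8 in ada2a, against 207, 267 and 232 in Col-0 and rose by 2.02 (SE 0.35). Both were called in all 4 fits, and NIMIN1 was lost with the block and the correction together (adjusted p = 0.0618). Of 9 WRKY factors of immunity 1 was higher and 2 lower, and WRKY54 (AT2G40750), a repressor of senescence, fell by 0.91 (SE 0.15, adjusted p = 0.000436) in all 4 fits.

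The senescence genes divided. Of 10 tested, 3 were called higher and 6 lower, with a median of -0.57, and 2 and 4 of them in all 4 fits (2 and 7 with equal totals). SAG12 (AT5G45890), a cysteine protease used as the standard marker of leaf senescence, had 129, 209 and 111 in ada2a, against 6.35, 1.29 and 4.42 in Col-0. The lowest ada2a library was more than 10 times the highest of Col-0, and SAG12 rose by 5.01 (SE 0.56, adjusted p = 1.86e-05). SAG21 (AT4G02380), a small stress protein of mitochondria, was at 7016, 12454 and 17109 in ada2a, against 3071, 3041 and 3825 in Col-0 and rose by 1.80 (SE 0.36).

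The regulators of senescence and the chlorophyll breakdown enzyme went the other way. NAP (AT1G69490), a NAC factor that promotes leaf senescence, had 787, 798 and 649 in ada2a, against 1543, 1389 and 1398 in Col-0, and ORE1 (AT5G39610), another such factor, had 699.6, 906 and 752 in ada2a, against 1336, 1086 and 1199.7 in Col-0. Both fell, with changes of -0.96 ± 0.19 (adjusted p = 0.00152) and -0.62 ± 0.15 (adjusted p = 0.00413) and with no overlap, and ORE1 was lost with the replicate block (adjusted p = 0.0576). SWEET15 (AT5G13170), a sugar transporter induced in ageing leaves, had 54.2, 76.0 and 119.6 in ada2a, against 308, 475 and 369 in Col-0 and fell by 2.24 (SE 0.41, adjusted p = 0.000805), with the groups well apart. PPH (AT5G13800), the enzyme that removes the phytol tail of chlorophyll, had 1982, 1589 and 1281 in ada2a, against 3641, 3012 and 2705 in Col-0 and fell by 0.96 (SE 0.21). All 4 were called in all 4 fits.

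Among 6 genes that darkness and a lack of sugar induce, 3 rose and 1 fell, while equal totals left 1 in each direction. DIN2 (AT3G60140), a beta-glucosidase, was listed at 32.4, 47.9 and 12.4 in ada2a and at 0 in all Col-0 libraries. DIN6 (AT3G47340), an asparagine synthase, was at 2812, 2192 and 2159 in ada2a, against 1498, 1523 and 1182 in Col-0. It rose by 0.77 (SE 0.20, adjusted p = 0.00663), a call lost with equal totals (adjusted p = 0.235). Both genes were called in all 4 fits.

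For photosynthesis the calls were divided and none held in all 4 fits, beside 7.67% of all genes. As deposited 19.8% of all genes were higher and 19.9% lower. Of 15 antenna genes 2 were higher and 3 lower (1 and 4 with equal totals), of 18 photosystem and electron transport genes 6 were higher and 1 lower (0 and 4 with equal totals), and of 9 Calvin cycle genes 1 was called, lower (4 lower with equal totals). The antenna genes, which mark green tissue, summed to 5416240 to 7387750 in ada2a and 4925710 to 5411810 in Col-0. Of 9 light signalling genes 1 was higher and 1 lower. HFR1 (AT1G02340), a shade-induced factor, was at 1266, 1047 and 1247 in ada2a, against 559, 654 and 746 in Col-0, and rose by 0.87 (SE 0.19, adjusted p = 0.0023) in all 4 fits, a call lost with the block and the correction together (adjusted p = 0.107).

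In defence metabolism, 3 of 8 indole glucosinolate and camalexin genes were called, each of them higher (2 higher and 3 lower with equal totals). CYP71A13 (AT2G30770), a cytochrome P450 of camalexin synthesis, had 74.7, 51.6 and 64.5 in ada2a, against 22.4, 21.8 and 13.4 in Col-0, and CYP81F2 (AT5G57220), which modifies indole glucosinolates, had 441, 422 and 492 in ada2a, against 222, 239.7 and 192 in Col-0. They rose by 1.69 (SE 0.26, adjusted p = 0.000295) and 1.05 (SE 0.20, adjusted p = 0.000872) in all 4 fits without overlap. In the aliphatic branch 1 of 14 genes was higher and 3 were lower. The enzyme gene BCAT4 (AT3G19710) rose by 0.54 in all 4 fits, though not with equal totals (adjusted p = 0.557) or without ada2a replicate 3 (adjusted p = 0.0552), and the regulator gene MYB29 (AT5G07690) fell by 1.37, a call lost with the covariate, in the 6-library fit, with the block (adjusted p = 0.0591) and without ada2a replicate 3 (adjusted p = 0.101). Of 14 anthocyanin and flavonol genes 3 were called, each of them lower, and DFR (AT5G42800), a late enzyme of anthocyanin synthesis, had 25.7, 11.4 and 11.6 in ada2a, against 46.0, 78.2 and 74.1 in Col-0. It fell by 2.02 (SE 0.39, adjusted p = 0.00108) in all 4 fits, a call lost with the block (adjusted p = 0.052).

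Stress genes gave no call that held in all 4 fits, and cell-cycle genes gave 2, beside 7.67% of all genes. As deposited 19.8% of all genes were higher and 19.9% lower. Of 22 cold and abscisic acid genes 7 were higher and 2 lower (3 and 7 with equal totals), and of 16 heat shock genes 3 were higher and 3 lower, none in all 4 fits. Of 14 mitotic genes 3 were higher and 1 lower (2 and 1 with equal totals). CDKB1;1 (AT3G54180) and CDKB1;2 (AT2G38620), a pair of plant-specific cell-cycle kinases, did not overlap between the groups. CDKB1;1 was at 889.5, 1049.8 and 1318 in ada2a, against 430.4, 421 and 587 in Col-0, and CDKB1;2 was at 481, 804 and 748 in ada2a, against 142, 247 and 231 in Col-0. They rose by 1.18 (SE 0.24) and 1.71 (SE 0.31) in all 4 fits. The mitotic genes, which mark dividing tissue, summed to 5363 to 5784 in ada2a and 4268 to 4703 in Col-0, and their part in the other changes was not tested.

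**Figure D5:**
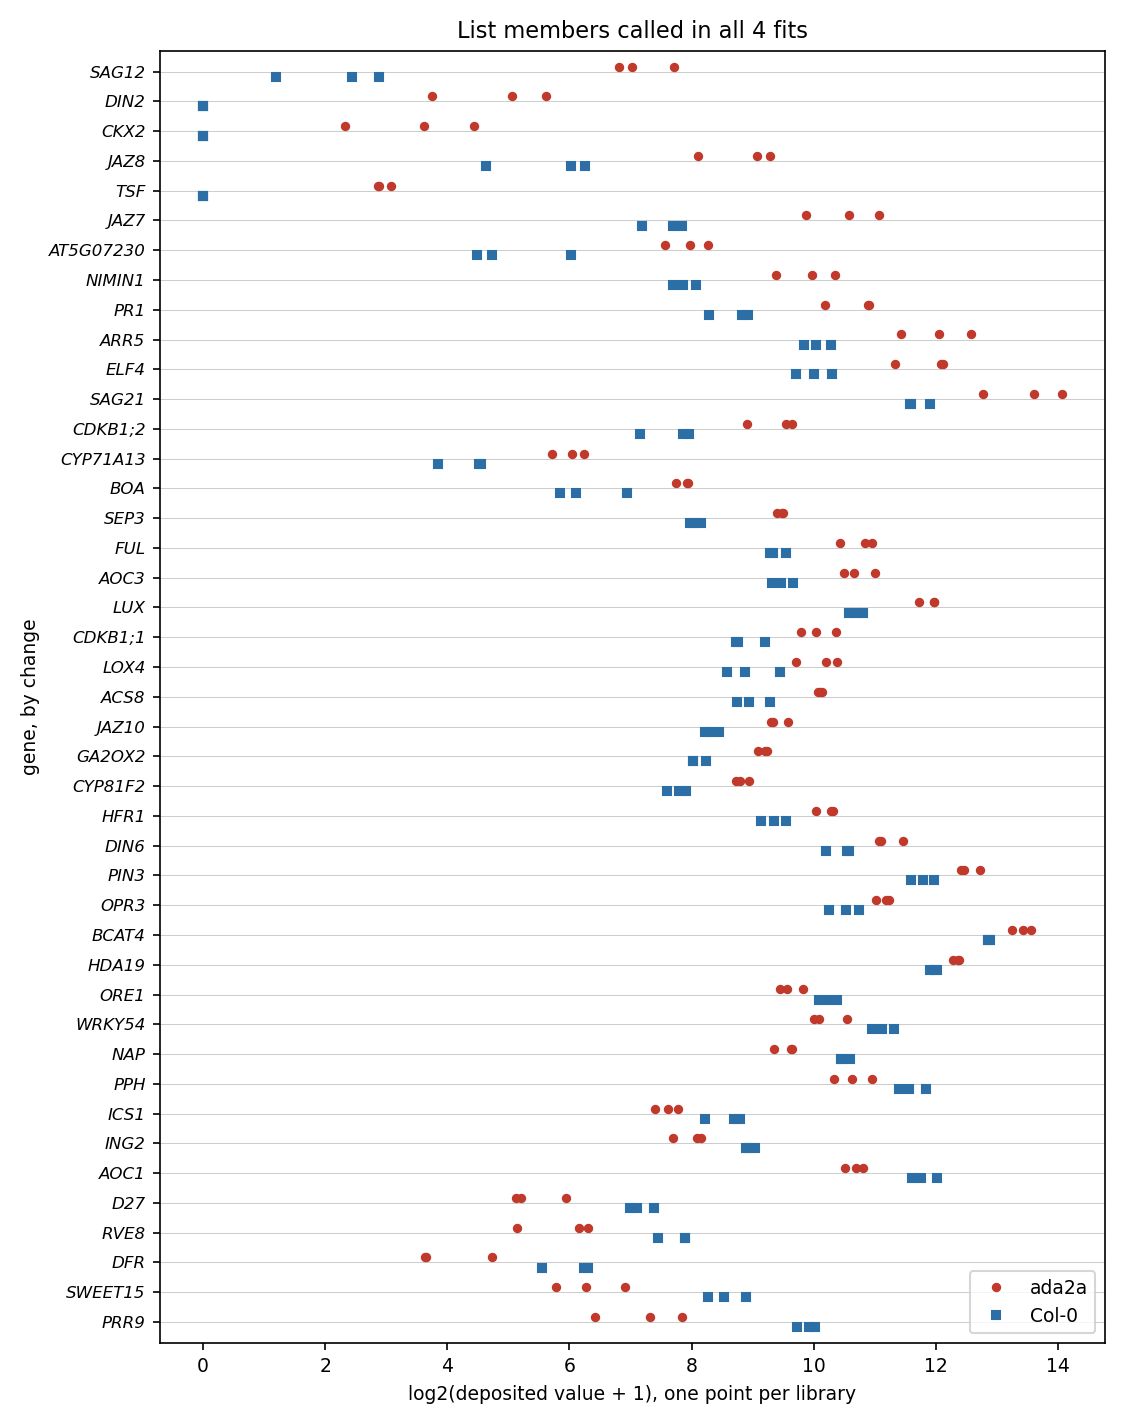
Values on the log2(value + 1) scale of the 43 members of the gene lists called in all 4 fits, 31 higher and 12 lower, 1 point per library, ada2a as red circles above Col-0 as blue squares, ordered by change. In every row the ada2a and Col-0 points do not overlap, which the choice of these genes favours.

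Of the gene classes read from the annotation, several with short transcripts had more genes called higher than lower as deposited, and their medians were lower after the length correction. Of 309 tested genes for cytosolic ribosomal proteins 154 were higher and 26 lower, but 16 and 1 in all 4 fits, beside 4.07% higher and 3.6% lower of all genes, and their median of 0.51 was 0.02 after the length correction. Of 43 core histone genes 27 were higher and 1 lower (2 and 0 in all 4 fits), with a median of 0.82 as deposited and 0.16 after the correction. Of 153 small nucleolar RNA genes 64 were higher and 1 lower (6 and 0 in all 4 fits), with medians of 1.38 and 0.33. Of 733 long noncoding RNA genes 139 were higher and 23 lower, near the share of all genes called higher, and after the correction 37 were higher and 141 lower, with a median of -0.60. Of 36 transfer RNA genes 2 were higher and 0 lower, against 0 and 10 after the correction.

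The largest changes over all genes were sought among the genes called in all 4 fits, without overlap and with a mean of at least 30 in the higher group. Besides SAG12 and DIN2, the 12 largest rises included AT5G37478, a TPX2 family protein related to a regulator of spindle microtubules, at 180.2, 267 and 244 in ada2a, against 12.7, 2.49 and 4.51 in Col-0. The uncharacterized protein gene AT5G44306 had 232, 532 and 622 in ada2a, against 0.0751, 13.5 and 6.66 in Col-0. Both were low in every Col-0 library and far higher in every ada2a library. The noncoding RNA AT1G67105 was detected in both groups, at 1104, 2494 and 2789.7 in ada2a, against 52.5, 116 and 109.5 in Col-0, and rose by 4.48 (SE 0.42, adjusted p = 4.52e-06). AT5G53740, an uncharacterized protein gene, had 872, 2399 and 1798 in ada2a, against 15.2, 54.1 and 71.7 in Col-0. It overlaps the gene AT5G53742, and AT4G00975, an antisense RNA, overlaps AT4G00980, as AT3G15450 and DELTA-TIP below overlap their neighbours. Among the list members above, CKX2, JAZ10, D27, DIN6, SAG21, BCAT4, CYP71A13, CDKB1;1 and CDKB1;2 overlap other genes too, with the same limit as for LUX. A spliceosomal U2 RNA (U2.5, AT5G09585), the microRNA precursor MIR5020b (AT4G05855), a small nucleolar RNA and 2 uncharacterized protein genes made up the rest.

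The largest falls began with 2 noncoding RNAs. AT2G01422 had 5.50, 26.5 and 17.2 in ada2a, against 185, 244 and 314 in Col-0, and AT3G06955 had 30.4, 28.7 and 73.4 in ada2a, against 549.9, 396 and 484 in Col-0. Both fell, with changes of -4.04 ± 0.61 and -3.53 ± 0.41, and no ada2a library came near the Col-0 range. RAP2.6 (AT1G43160), a stress-responsive ERF factor, had 6.10, 0.345 and 5.99 in ada2a, against 58.6, 31.3 and 32.2 in Col-0, and AT2G38240, annotated as an iron-dependent oxygenase, had 44.6, 25.5 and 36.2 in ada2a, against 264, 185 and 237 in Col-0. AT2G40960, annotated as an R3H nucleic acid-binding protein, was at 45.5, 22.2 and 19.7 in ada2a, against 316, 265 and 271 in Col-0 and fell by 3.33 (SE 0.54, adjusted p = 0.000376). AT5G11330, annotated as an FAD-dependent oxidoreductase, was at 429.6, 268 and 552 in ada2a, against 2462, 2140.1 and 2281 in Col-0, with a change of -2.52 ± 0.28. MEF3 (AT1G06140), an RNA editing factor of mitochondria, fell by 2.55 (SE 0.48), and PRR9 was among these 12 as well.

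By absolute difference in signal, the same conditions picked abundant transcripts. AT3G15450, annotated as an aluminum-induced protein, had 157733, 234703 and 279588 in ada2a, against 47694, 44306 and 60760.5 in Col-0, and the dormancy/auxin associated gene AT2G33830 had 84219.5, 150073 and 180702 in ada2a, against 25691, 32053 and 38002 in Col-0. Both showed no overlap, with changes of 2.11 ± 0.30 and 2.06 ± 0.29. DELTA-TIP (AT3G16240), a water channel of the vacuole membrane, was at 128720.0, 238378 and 298690.0 in ada2a, against 56160.0, 63344 and 74610.1 in Col-0. AGP15 (AT5G11740), an arabinogalactan peptide of the cell surface, rose by 1.76, and HOG1 (AT4G13940), the enzyme that clears S-adenosylhomocysteine after methylation, by 0.88. The abundant genes that fell were led by PMDH2 (AT5G09660), a malate dehydrogenase of peroxisomes that serves photorespiration, at 15580.2, 13289 and 7671 in ada2a, against 34773, 29578 and 26361 in Col-0. LrgB (AT1G32080), a glycolate and glycerate carrier of the chloroplast envelope, fell by 0.91 (SE 0.20), and the others were the protease gene ALP (AT5G60360), the peroxidase gene GPX1 (AT2G25080) and the methyltransferase gene AT1G73600, with changes of -1.17 ± 0.25, -0.90 ± 0.20 and -1.65 ± 0.25.

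Against spc, the single mutant of another PAGA subunit, 241 genes were called in the fit of all libraries. Of them 88 genes were higher in ada2a than in spc (0.378% of those tested) and 153 lower (0.657%), together 1.03%. This count rested on the pooled spread: in a limma fit of those 6 libraries alone 0 genes passed and 1455 had an unadjusted p under 0.05, and after the length correction 647 passed in the fit of all libraries. Among the genes named above, DIN2 had 32.4, 47.9 and 12.4 in ada2a and 0.0743, 3.11 and 3.91 in spc, a difference of 3.33 ± 0.47 (adjusted p = 0.00119). AT3G26040, annotated as an acyltransferase, had 1.42, 1.85 and 7.06 in ada2a and 33.7, 20.3 and 31.6 in spc, a difference of -2.92 ± 0.46 (adjusted p = 0.00227). AT2G15020, an uncharacterized protein gene, was at 117, 133 and 58.1 in ada2a, 14.1, 16.2 and 16.5 in spc and 771, 659.6 and 603 in Col-0, so ada2a lay between them without overlap, with a difference of 2.56 ± 0.58 from spc (adjusted p = 0.0354). SAG12 was at 38.6, 56.2 and 44.2 in spc and ELF4 at 2492, 6980.2 and 3960.0, and neither passed against ada2a (differences of 1.63 ± 0.56 and -0.16 ± 0.30). Of the 12 largest rises, AT4G00975, AT5G53740, AT1G03746 (the small nucleolar RNA) and AT1G32225 (an uncharacterized protein gene) were also higher than in spc. Their adjusted p-values in this limma fit were 0.00216, 0.00865, 0.0182 and 0.0334. Of the 12 largest falls, AT3G06955, AT2G38240, AT2G01422 and RAP2.6 were also lower than in spc (adjusted p = 0.00909, 0.0139, 0.0149 and 0.0436). Beside the genes given here, none of the 12 largest rises and 12 largest falls passed against spc. The comparisons with spc and with Col-0 use the same ada2a libraries.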

How the data were processed

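The deposited table holds a signal per gene and library that the authors made from paired-end Illumina reads of total RNA. The submitters' processing notes name bcl2fastq, HISAT2, edgeR and the build TAIR10, without versions. The values are not whole numbers, so no count model was used, and how they were scaled is not given in the sources used here. Each column was assigned by its name to the sample with that title, and 0 columns fell outside the mapped samples.

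All 32548 gene IDs matched the RefSeq TAIR10.1 annotation. Values were taken as log2(value + 1), and the 23290 genes with a mean of at least 1 were fitted with limma 3.58.1 in R 4.3.3, with a variance trend, all 21 libraries and a mean for each of the 7 genotypes. P-values were adjusted by Benjamini-Hochberg. Because the values were not counts, the count test planned for that case was not run. The length and GC correction took a spline of 5 degrees of freedom, fitted over 18559 genes of mean at least 30, off every library's values. The fits were also run on simulated data that gave every genotype the same spread per gene. The unequal spread of these genotypes was not simulated, so that run does not cover it. Figures were drawn with matplotlib 3.10.9 under Python 3.11.15.

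Same-numbered ada2a and Col-0 libraries deviated together from their group means, with correlations across genes of 0.25, 0.16 and 0.47, so replicate number was also fitted as a block, although the labels do not state such a pairing. However, ada2a replicate 2 correlated more with Col-0 replicate 1 (0.22), and after the length and GC correction the same-numbered values were 0.084, 0.087 and 0.24.

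Of each gene list, up to 4 called members of largest change were eligible for naming, with members called against the majority and the defining markers of other tissues. LHY, LNK2, NAP, OPR3, ORE1, RVE4, SGF29B and the members named without a call were chosen after their values were seen, as were the classes and genes of the closing observations. Of all genes, the 12 of largest change in each direction and the 5 of largest difference of means were eligible. The comparison and the lists were chosen with earlier results of these data known. Alternatives varied the pseudocount, filter, scaling, spread, block, length correction and libraries, and a test against a change of 1.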

Additional observations from a re-analysis of the deposited data

How the results depend on the processing

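In ada2a against Col-0, 4606 genes were called higher and 4629 lower as deposited, and the totals of other fits are given beside these. The fit of the 6 libraries alone called 2824 and 1980, together 4804, of which 4662 were also called in the same direction as deposited. The length slope covariate gave 2292 and 1453, together 3745, and the 6-library fit with the length and GC correction 2585 and 2360, together 4945, a setting added after seeing the data. Equal column totals gave 2642 and 7146. A test against a change of at least 1 gave 86 and 14, together 100, and the condition that groups do not overlap and differ by at least 1 gave 5787, of which 2434 were lower. With the replicate block in the 6-library fit 7565 genes were called, and with the replicate block and the correction 5888, of which 2753 were lower. Leaving out 1 library gave 4600 to 10305 genes, 2357 to 5116 higher and 2243 to 5189 lower, with the fewest without ada2a replicate 3 and 5528 (2829 higher, 2699 lower) without Col-0 replicate 1. Of the 1787 genes called in all 4 fits, leaving out 1 library kept 1766 to 1782, equal totals 1661, equal medians 1756 and the block with the correction 1595. That set was picked on these same libraries, which favours such counts.

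Against spc, the 241 calls became 362 with no filter on low values, 647 after the length and GC correction and 1611 with the covariate. They became 13 with one weight per genotype, 9 with the replicate block and the correction, 3 in the 6-library fit with the correction and 1 against a change of at least 1. In the 6-library fit without and with the replicate block limma called 0, while 1455 and 1351 genes had an unadjusted p under 0.05. Leaving out 1 library gave 82 (without ada2a replicate 2) to 564 (without ada2a replicate 1), with 505 without spc replicate 1 and 115 without spc replicate 3.

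The change of ADA2A passed at -1.18 when genes of mean under 30 were left out (adjusted p = 0.0473), at -1.54 with equal totals (adjusted p = 0.0171), and at -1.48 when Col-0 replicate 3 was left out, and leaving out 1 library gave -1.69 to -0.89. It did not pass in the 6-library fit (adjusted p = 0.149), with the covariate (adjusted p = 0.193) or after the length and GC correction, where it was -0.66 (adjusted p = 0.301). GCN5 changed sign to 0.32 in the fits with the length and GC correction, to 0.0129 with the covariate and to 0.0213 with equal medians. With equal totals the sign turned for HDA19 (-0.00875), AUX1 (-0.0108), RGA (-0.00521) and MYB51 (-0.00679). With the covariate it turned for FKF1 (0.0156), AHK3 (0.0782), PSAN (-0.00179) and PDF1.2A (-0.0902). With the correction it turned for PDF1.2A (-0.58), LTI30 (-0.13) and ABI1 (0.0515). Over 167 named genes and 20 alternatives, 2590 of 3326 values kept direction and call, 719 lost the call and 17 changed sign, and 20 genes kept the call under every alternative. Where the replicate block ended the call of a gene named above, its value stands there, except for LrgB and FKF1 (adjusted p = 0.114 and 0.0502 with the block and the correction). The causes were not tested. Depth is unknown, and 3 libraries per group with a wider spread in ada2a than in Col-0 limit the precision.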

Other observations

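Beyond the lists described above, families of small cell wall and cell surface proteins had many members called higher in ada2a as deposited. These families were chosen after values had been seen, so their counts describe these libraries and test nothing. Of all tested genes 19.8% were called higher and 19.9% lower, and 4.07% and 3.6% in all 4 fits. Of 48 tested genes annotated as arabinogalactan proteins, which are heavily glycosylated proteins of the cell surface, 31 were called and each was higher, 18 of them in all 4 fits. Their median change was 1.05 as deposited and 0.67 after the length and GC correction, beside -0.02 for all genes tested. AGP13 (AT4G26320) had 335, 726 and 771 in ada2a, against 27.8, 17.5 and 34.2 in Col-0, without overlap, and rose by 4.43 (SE 0.69, adjusted p = 0.000283). Of 22 genes annotated as expansins, proteins that loosen the cell wall, 15 were called and each was higher, 6 in all 4 fits. EXLA1 (AT3G45970) was at 6586, 7808 and 9201 in ada2a, against 1439.6, 1810.3 and 2258 in Col-0, and rose by 2.11 (SE 0.24, adjusted p = 2e-05). Of 19 RALF peptide genes, whose products are sensed by receptor kinases at the wall, 15 were called and each was higher, 4 in all 4 fits. RALFL33 (AT4G15800) had 7238, 15508 and 17353 in ada2a, against 2786, 3527 and 3946 in Col-0 and rose by 1.88 (SE 0.36). Of 71 genes of the auxin-responsive SAUR family 46 were called and each was higher, 6 in all 4 fits, and their median of 1.29 was 0.17 after the correction, where 9 were higher and 3 lower. For the expansins and RALF genes the medians were 0.91 and 2.05 as deposited, and 0.80 and 1.16 after the correction. EXLA1 overlaps AT3G45980 and RALFL33 overlaps AT4G06335 in the annotation, so reads of these pairs cannot be told apart. With equal totals 21, 10, 14 and 26 genes of these 4 families were still called higher, in the order given, beside 11.3% of all genes. Their median transcript lengths were 970.5, 1365, 700.0 and 827 nt, against 1620 nt for all genes tested, and the part of the length trend in calls outside the 4 fits was not tested.

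A pair of families whose median transcript lengths were above that of all genes had more members called lower than higher as deposited. The shares of all genes were 19.8% higher and 19.9% lower, and 4.07% and 3.6% in all 4 fits. Of 242 genes for pentatricopeptide repeat proteins, which process RNA in mitochondria and chloroplasts, 2 were higher and 136 lower, of which 0 and 27 in all 4 fits. Their median was -1.02 as deposited and -0.59 after the correction. PPR40 (AT3G16890), a mitochondrial member, had 16.1, 19.4 and 7.16 in ada2a, against 86.4, 108 and 35.8 in Col-0, without overlap, and fell by 2.31 (SE 0.43, adjusted p = 0.000856). Of 126 genes annotated as NB-ARC or NBS-LRR disease resistance proteins 6 were higher and 44 lower, 3 and 15 in all 4 fits. After the correction 17 were higher and 34 lower, and their median of -0.55 was -0.12 (11 and 19, with a median of 0.03, with the covariate). SUMM2 (AT1G12280), an immune receptor of this kind, was at 207, 154 and 105 in ada2a, against 679, 535 and 484 in Col-0 and fell by 1.90 (SE 0.33, adjusted p = 0.000574). It overlaps AT1G12290, with the same limit. With equal totals the counts were 0 higher and 178 lower in the pentatricopeptide family and 3 higher and 64 lower in the resistance family. Of all genes 11.3% were then higher and 30.7% lower.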
